A study of Drosophila melanogaster with 3 samples.

Results

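Described here are 10 genes of the Wingless and Hedgehog signalling pathways in Drosophila melanogaster, out of 13968 protein-coding genes of the annotation on the arms analysed: wg, fz, fz2, arm, nkd, hh, smo, ptc, ci and en. They were chosen by name, with earlier results of these data known. Every binding site in a gene's body or up to 2000 bp upstream of its start was collected for each. The sites are those of the homeodomain protein Ind (intermediate neuroblasts defective), which patterns the middle column of the neural ectoderm. They were mapped by chromatin immunoprecipitation and sequencing (ChIP-seq) in 3 biological replicates of whole embryos, male and female together, aged 0 to 16 hours. All 3 replicates formed 1 group, a transgenic line that stably made Ind with GFP at its C-terminal end. Per the description in the labels the chromatin was pulled down with an antibody to GFP, while the antibody field of the labels names ind. No untagged or untreated group entered the lists as a sample, so no comparison between groups was made and no test was run.

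Wingless is a secreted Wnt ligand that binds Frizzled receptors and stabilises Armadillo, the fly beta-catenin, which then acts in the nucleus as a co-activator. Hedgehog is a secreted ligand that binds Patched, which frees Smoothened to act and keeps the transcription factor Ci in its activating form. In the embryonic epidermis, neighbouring rows of cells that make Wingless and Hedgehog maintain each other's ligand across the segment boundary, and the same signals help to specify neuroblasts in the nerve cord primordium.

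Each site is a peak in a list made by the authors, represented by its summit, the base of highest signal. The authors' optimal list, derived by them with the irreproducible discovery rate, which weighs how peaks rank between replicates, held 5809 peaks in dm6. At the genes described here each optimal peak had the same rank by signal in the authors' pooled list of all 3 replicates. An optimal peak therefore need not keep its rank in each replicate. Their relaxed lists, which include weak peaks and background, held 30000, 27570 and 25725 peaks for replicates 1, 2 and 3. The first holds exactly 30000, and whether its length was limited was not stated, so a ratio to the median of that whole list could shift with its length. Signal was taken as the authors computed it, and is given relative to the median signal of the optimal list. In a replicate, relative signal is the signal of the summit within 200 bp over the median of all optimal peaks matched in that replicate. A peak was called found in a replicate when a summit within 200 bp was among that replicate's 5809 strongest, which held for 80.8%, 89.3% and 91.8% of the optimal list in replicates 1, 2 and 3. Read depth is unknown. Peak lists measure no expression, so the labelled tissue could not be checked against marker genes. In whole embryos, binding in fewer cells and weaker binding per cell cannot be told apart.

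Of the 10 genes, 6 held at least 1 optimal peak: fz, fz2, nkd, hh, smo and ptc. Over all protein-coding genes the share was 34.2%. The genes wg, arm, ci and en held 0. When each peak of the list was given instead to its nearest coding start at any distance, wg had 2 and en 1, fz fell from 9 peaks to 2, and arm and ci still had 0. The 24 peaks were unevenly spread, with 9 at fz, 6 at fz2, 5 at nkd, 2 at ptc and 1 each at hh and smo. Gene length ran broadly alongside this order, with exceptions. The gene fz2 is slightly longer than fz, and smo is shorter than wg, arm and ci, which had no peak. The 3 genes of at least 40000 bp, fz, fz2 and nkd, held 20 of the 24 peaks, and all 3 had a peak, against 68.6% of the 468 coding genes of that length. All 3 also had 5 or more peaks, which 20.3% of those 468 genes had. The limit of 5 equals the number at nkd, the lowest of the 3, so this share is a description alone. Of the 7 genes of 4000 to 16000 bp, 3 had a peak, against 47.9% of 2906 coding genes of such length. Per 10 kb of body and upstream window the number was 0.935 at fz, 0.622 at fz2 and 1.14 at nkd, where the median coding gene of at least 40000 bp had 0.221. By number of optimal peaks 26 coding genes, fz included, had at least as many as fz.

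The peaks lay mostly in introns. Of the 24 summits 21 were in introns (87.5%), against 37.0% of the whole optimal list. Promoters, taken as the sequence within 500 bp of an annotated transcription start of any gene, held 2 of the 24 (8.33%) against 48.1% of the list. Within 1000 bp of a start the number rose to 6 of 24, against 58.6% of the list. With the narrower definition the remaining summit was intergenic. Both promoter peaks lay at starts of the genes themselves, nkd and smo, so 2 of the 10 genes had a summit within 500 bp of an own start, where 23.9% of coding genes did. The intron peaks of these genes had a median relative signal of 0.816, and all intron peaks of the optimal list 0.915. A long gene offers much intron, and the part of length in these shares was not tested.

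Of the 24 peaks 15 were found in all 3 replicates (62.5%), where 70.1% of the whole optimal list were. Another 5 were found in 2 replicates, 3 in 1 and 1 in 0. Replicate 1 held 17 of them, replicate 2 held 19 and replicate 3 held 22. Summits of the same peak differed between replicates by a median of 45 bp and by at most 134 bp. Most of the peaks were weak for the list, with a median relative signal of 0.836 and a range from 0.542 to 3.14. The strongest 1452 peaks of the list held 2 of them, 1 at fz and 1 at nkd, and the weakest 1452 held 9.

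**Figure D1:**
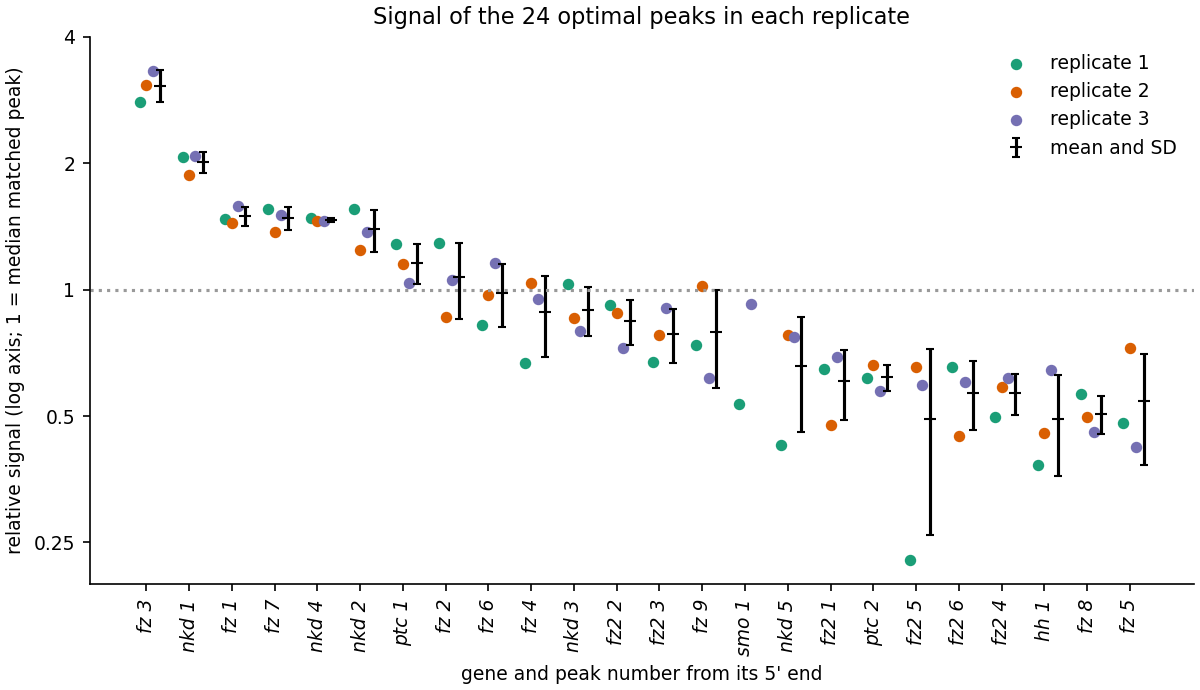
Relative signal (log axis, 1 is the median matched peak) of the 24 optimal peaks in each replicate, ordered by their relative signal in the optimal list, with gene and peak number counted from the gene's 5' end. Points are replicates 1, 2 and 3, and bars are the mean and SD (n = 3), left out at smo 1, which replicate 2 lacks. The peaks fz 3 and nkd 1 stand highest, and the replicates of most peaks lie close together, fz2 5 in replicate 1 (0.227) being the lowest point.

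In each replicate fz, nkd and ptc had the highest-ranked summits of the 10 genes. In replicate 1, 5 of the 10 genes had a peak among the 5809 strongest, against 34.9% of coding genes. In replicate 2 the number was 4 against 33.0%, and in replicate 3 it was 6 against 34.6%. These shares of coding genes took no account of length. The median coding gene was 2164.5 bp long, and the shortest of the 10 genes, en, 4205 bp. The mean was 5 ± 1 genes (SD, n = 3). The genes fz, nkd, ptc and fz2 had one in every replicate, smo and hh in replicate 3, and wg in replicate 1.

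**Figure D2:**
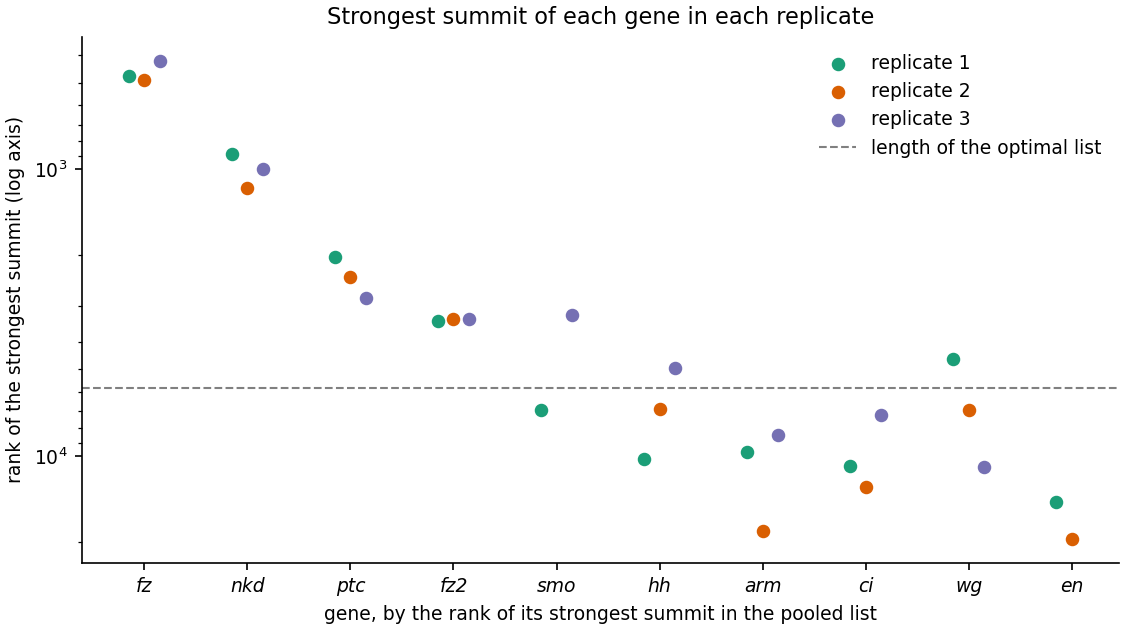
Rank of the strongest summit of each gene in each replicate's relaxed list (inverted log axis, with rank 1 at the top), the genes ordered by their strongest summit in the authors' pooled list. Each point is a replicate, and the dashed line marks 5809, the length of the optimal list. All 3 points of fz, nkd, ptc and fz2 lie above the line, hh, smo and wg straddle it, and arm, ci and en lie below it. Replicate 2 has no summit at smo and replicate 3 none at en.

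The ligand gene wg (FBgn0284084, 2L from 7307159 to 7316265 in dm6, plus strand) had no optimal peak in its 9107 bp or in the 2000 bp upstream. Each replicate did have a relaxed summit at the promoter. In replicate 1 it lay at -172 bp from the start, with a signal 2.52 times the median of that relaxed list, at rank 4581. In replicates 2 and 3 it lay at -189 bp at 0.903 and 0.812 times the median of their own lists, at ranks 16712 and 17078. The promoter summit was thus among the 5809 strongest in replicate 1 and far down the other lists. In the pooled list its rank was 8775. A further summit in the body stood higher in replicate 2 (at 6445 bp, rank 6925) and replicate 3 (at 6538 bp, rank 10940). The nearest optimal peaks outside the window lay at -11060 bp, between genes, and at 26159 bp, at the promoter of the neighbouring Wnt gene Wnt6. The upstream one had relative signals of 0.872, 1.24 and 1.31 in replicates 1, 2 and 3 (1.14 ± 0.236, SD, n = 3) and was found in all 3. Its nearest coding start was that of wg. The 201 bases around the pooled promoter summit, chr2L:7306879-7307079 of RefSeq Release 6 (dm6), plus strand, are shown as the site where the replicates parted. None of the motifs searched is in it, so it has no capitals, and 43.3% of its bases are A or T, against a median of 65.7% over all optimal summits.
wg promoter: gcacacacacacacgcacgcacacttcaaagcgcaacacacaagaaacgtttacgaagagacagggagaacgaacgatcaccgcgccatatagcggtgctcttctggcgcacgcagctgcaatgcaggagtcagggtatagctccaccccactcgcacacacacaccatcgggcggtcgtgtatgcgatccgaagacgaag

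The receptor gene fz (frizzled, FBgn0001085, 3L from 14274343 to 14368639, plus strand) carried 9 optimal peaks over its 94297 bp, 5 of them above the list's median. The strongest of all 24 peaks (3L from 14303929 to 14304204) lay here, in the first intron, 29716 bp downstream of the start. The coding start nearest to it was that of CG13482, at -25287 bp, and 7 of the 9 fz peaks had a coding start of another gene nearer than that of fz. Its relative signal was 2.79, 3.07 and 3.32 in replicates 1, 2 and 3 (3.06 ± 0.264, SD, n = 3) and 3.14 in the optimal list. Its ranks were 474, 488 and 419 in the replicates, so each replicate placed it near the top of its list. The sequence around its summit, chr3L:14303959-14304159 of RefSeq Release 6, plus strand, is shown as the strongest site. It held none of the motifs searched. The first intron held 1 more peak, at 23320 bp, with 1.29, 0.858 and 1.06 (1.07 ± 0.218, SD, n = 3). Its sequence, chr3L:14297563-14297763, plus strand, is shown for its single GAGAGA, read as TCTCTC on this strand and set in capitals.
fz at 29716 bp: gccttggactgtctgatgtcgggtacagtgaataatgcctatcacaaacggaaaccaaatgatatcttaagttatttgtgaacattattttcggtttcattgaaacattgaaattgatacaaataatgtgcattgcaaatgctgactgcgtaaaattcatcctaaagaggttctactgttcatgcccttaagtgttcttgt
fz at 23320 bp: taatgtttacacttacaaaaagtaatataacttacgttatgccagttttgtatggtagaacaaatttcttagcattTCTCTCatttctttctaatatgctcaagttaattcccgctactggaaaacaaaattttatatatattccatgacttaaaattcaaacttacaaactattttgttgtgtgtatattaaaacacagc

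The only fz peak outside the body lay at -1742 bp from the start. Its relative signal was 1.47, 1.44 and 1.59 in replicates 1, 2 and 3 (1.50 ± 0.0782, SD, n = 3). The other 6 fz peaks all lay in the last of the 4 introns, where coding genes such as CG13482 and CG13481 have starts closer to all 6 than the start of fz. The highest of these 6, at 64747 bp, reached 1.56, 1.37 and 1.50 (1.48 ± 0.0932, SD, n = 3). The one at 61689 bp reached 0.822, 0.968 and 1.16 (0.983 ± 0.168, SD, n = 3). The peak at 51164 bp, which also falls at lncRNA:CR45025, a non-coding RNA gene, reached 0.669, 1.04 and 0.950 (0.885 ± 0.192, SD, n = 3). These lay within their own spread of the list's median or above it. The peak at 89026 bp had 0.737, 1.02 and 0.616 (0.791 ± 0.207, SD, n = 3). The remaining pair stood at the edge of the optimal list. The peak at 54306 bp, whose summit was at -697 bp from the start of CG13482, had 0.480, 0.724 and 0.421 and was found in replicate 2 alone. The peak at 78911 bp had 0.563, 0.496 and 0.459 and was found in no replicate, at ranks 6469, 6256 and 7017. Gaps between neighbouring fz summits ran from 3058 to 25062 bp with a median of 8749 bp.

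The second Wingless receptor gene, fz2 (frizzled 2, FBgn0016797, 3L from 19140975 to 19235373, minus strand), is of almost the same length as fz, 94399 bp, and carried 6 optimal peaks, all in introns. All 6 were below the list's median, from 0.582 to 0.856, with a median of 0.640. The strongest, at 18754 bp, had 0.919, 0.878 and 0.726 in replicates 1, 2 and 3 (0.841 ± 0.102, SD, n = 3). The next, at 44444 bp, had 0.672, 0.781 and 0.902 (0.785 ± 0.115, SD, n = 3). Both were found in all 3 replicates and did not differ beyond their spread. The other 4 were each missed by 1 replicate. Replicate 2 missed the peak at 3998 bp (0.646, 0.475 and 0.692 in replicates 1, 2 and 3) and that at 72236 bp (0.653, 0.449 and 0.602). Replicate 1 missed the peak at 67214 bp (0.496, 0.587 and 0.617) and that at 68878 bp (0.227, 0.655 and 0.593). At the last of these, replicate 1 had rank 20571, the lowest of any match at these genes. The 3 peaks from 67214 to 72236 bp lay in the intron that follows a start inside the gene, at 2489, 4153 and 7511 bp from it.

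The gene arm (FBgn0000117, X from 1891401 to 1900646, minus strand) encodes Armadillo and had no optimal peak. Its strongest summit had rank 9733 in replicate 1, 18370 in replicate 2 and 8453 in replicate 3. These were at different places, 134 bp from the start in replicate 1, at -1335 bp in replicate 2 and at 3087 bp, in an intron, in replicate 3. Replicate 3 also had a summit 259 bp from the start, at rank 8526, and replicate 2 had no other summit at arm. No replicate put a summit of arm among its strongest 5809. The nearest optimal peak upstream, at -7300 bp, lay at the promoter of the neighbouring gene Edem1.

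The gene nkd (naked cuticle, FBgn0002945, 3L from 19003741 to 19045449, minus strand) encodes an inhibitor of Wingless signalling that Wingless itself induces, a negative feedback. It had 5 optimal peaks, and the stronger of the 2 promoter peaks described here. The promoter summit lay at -132 bp (3L from 19045471 to 19045728) with a relative signal of 2.07, 1.87 and 2.09 in replicates 1, 2 and 3 (2.01 ± 0.120, SD, n = 3). Its ranks were 883, 1165 and 998. All 3 replicates held the site well above the list's median. The other 4 peaks lay in the first intron. At 2827 bp the values were 1.56, 1.24 and 1.37 (1.39 ± 0.160, SD, n = 3). At 20447 bp they were 1.48, 1.46 and 1.46 (1.46 ± 0.0141, SD, n = 3), the smallest SD among the 24 peaks. These lay above the list's median in every replicate and did not differ from each other beyond their spread. The peak at 12084 bp, which also falls at lncRNA:CR45940, had 1.03, 0.857 and 0.797 (0.895 ± 0.121, SD, n = 3). The peak at 28880 bp, whose nearest coding start was that of SmydA-2, had 0.427, 0.777 and 0.770 and was missed by replicate 1. The promoter site and the intron site at 2827 bp are shown on the strand of the gene, chr3L:19045481-19045681 and chr3L:19042522-19042722 of RefSeq Release 6, minus strand. Capitals mark GAGAGA in the promoter site and the 2 copies of TAATTA, a core bound by many homeodomain proteins, in the intron site.
nkd promoter: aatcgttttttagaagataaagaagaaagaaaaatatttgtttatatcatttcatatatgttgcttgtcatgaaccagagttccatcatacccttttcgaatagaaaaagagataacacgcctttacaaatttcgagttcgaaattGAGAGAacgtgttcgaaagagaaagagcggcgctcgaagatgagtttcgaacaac
nkd at 2827 bp: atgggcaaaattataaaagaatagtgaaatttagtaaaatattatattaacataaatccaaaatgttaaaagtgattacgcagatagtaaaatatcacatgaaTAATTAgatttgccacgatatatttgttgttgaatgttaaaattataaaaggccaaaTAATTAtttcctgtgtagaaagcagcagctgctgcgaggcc

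**Figure D3:**
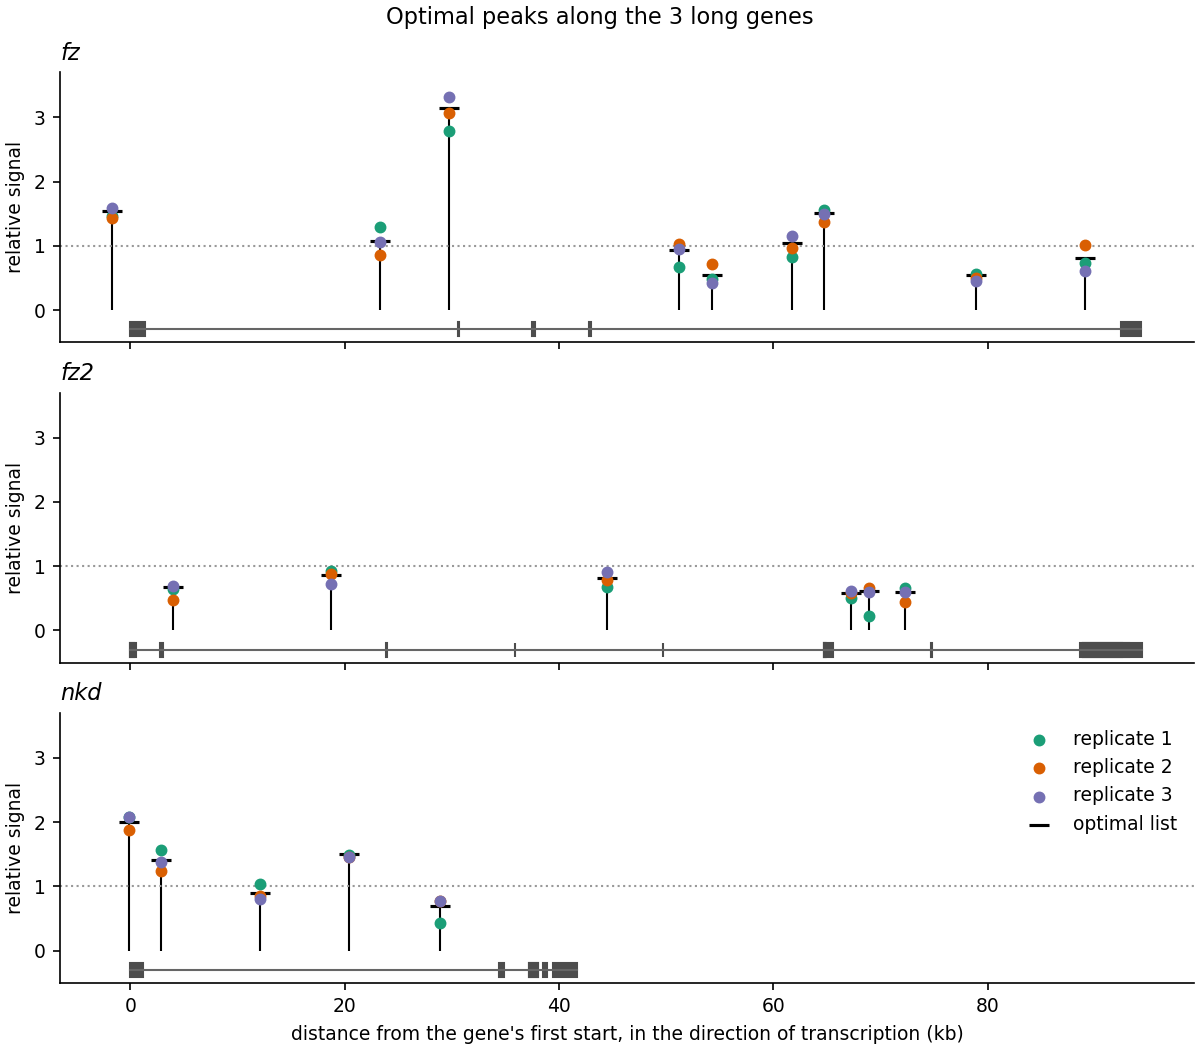
Relative signal (1 is the median peak, dotted line) of the optimal peaks along fz, fz2 and nkd, against distance from the first start in kb, with exons drawn as boxes below. Points are replicates 1, 2 and 3, and black bars with stems are the optimal list. The fz peak at 29716 bp and the nkd promoter peak stand out, and every fz2 peak of the optimal list lies below the dotted line.

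The ligand gene hh (hedgehog, FBgn0004644, 3R from 23128169 to 23141906, minus strand) had 1 weak optimal peak (3R from 23139514 to 23139913), in its first intron at 2192 bp. Its relative signal was 0.381, 0.456 and 0.642 in replicates 1, 2 and 3 (0.493 ± 0.134, SD, n = 3), at ranks 10723, 6869 and 4929. Replicate 3 alone had it among the strongest 5809, although all 3 had a summit there within 45 bp of each other. In the optimal list its rank was 5484 of 5809. Its sequence, chr3R:23139614-23139814 of RefSeq Release 6, minus strand, is shown as the only site of the Hedgehog ligand gene, and none of the motifs searched is in it.
hh at 2192 bp: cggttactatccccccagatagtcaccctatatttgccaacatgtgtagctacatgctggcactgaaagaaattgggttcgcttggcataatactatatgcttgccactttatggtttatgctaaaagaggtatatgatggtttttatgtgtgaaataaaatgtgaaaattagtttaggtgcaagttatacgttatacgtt

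The gene smo (smoothened, FBgn0003444, 2L from 277582 to 282167, plus strand) encodes the transmembrane protein that relays the Hedgehog signal. Its 1 optimal peak lay at -181 bp, at the promoter of smo, and also falls in the body or upstream window of the neighbouring gene CG17078. The relative signal was 0.534 in replicate 1 and 0.925 in replicate 3, at ranks 6941 and 3237, and replicate 2 had no summit within 200 bp in its whole list of 27570. Its relative signal in the optimal list was 0.706, at rank 4339. This was the 1 peak of the 24 for which a replicate had no matching summit, so the value has no SD over 3 replicates. The next optimal peak upstream, at -9923 bp near the start of CG17075, was stronger, at 3.60 ± 0.159 (SD, n = 3).

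The gene ptc (patched, FBgn0003892, 2R from 8649649 to 8665223, plus strand) encodes the Hedgehog receptor and is itself induced by the pathway, so that it limits the signal's spread. It carried 2 optimal peaks, both in the first of 5 introns and both found in all 3 replicates. The one at 2790 bp, which also counts for lncRNA:CR44281, had 1.29, 1.15 and 1.04 in replicates 1, 2 and 3 (1.16 ± 0.126, SD, n = 3). The one at 10089 bp, whose nearest coding start was that of Acsl, had 0.618, 0.663 and 0.573 (0.618 ± 0.0448, SD, n = 3). The values of the first lay above those of the second in every replicate. A stronger peak lay just outside the window, between genes at -5295 bp, with 2.12, 1.70 and 2.08 (1.97 ± 0.231, SD, n = 3). Its nearest coding start was that of ptc, and it was found in all 3 replicates.

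The transcription factor genes ci and en had no optimal peak. The gene ci (cubitus interruptus, FBgn0004859, chromosome 4 from 47710 to 57041, minus strand) had its strongest summits near its start, at 622, 919 and 801 bp in replicates 1, 2 and 3, with ranks 10872, 12821 and 7207. They lay within 500 bp of an annotated start, and their signal was 1.29, 1.04 and 1.72 times the median of each relaxed list. Chromosome 4 as a whole held 16 optimal peaks, and 17 of its 80 coding genes had one in reach. The gene en (engrailed, FBgn0000577, 2R from 11524006 to 11528210, minus strand), a homeodomain factor that maintains hh expression, had the lowest-ranked summits of the 10. The strongest had rank 14502 in replicate 1 and 19498 in replicate 2, and replicate 3 had none. The nearest optimal peaks lay at -25354 bp, with 0.588, 0.527 and 0.516 in the replicates (0.543 ± 0.0388, SD, n = 3), and at 27979 bp, inside its paralogue inv. The first was found in no replicate and the second in 1.

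**Figure D4:**
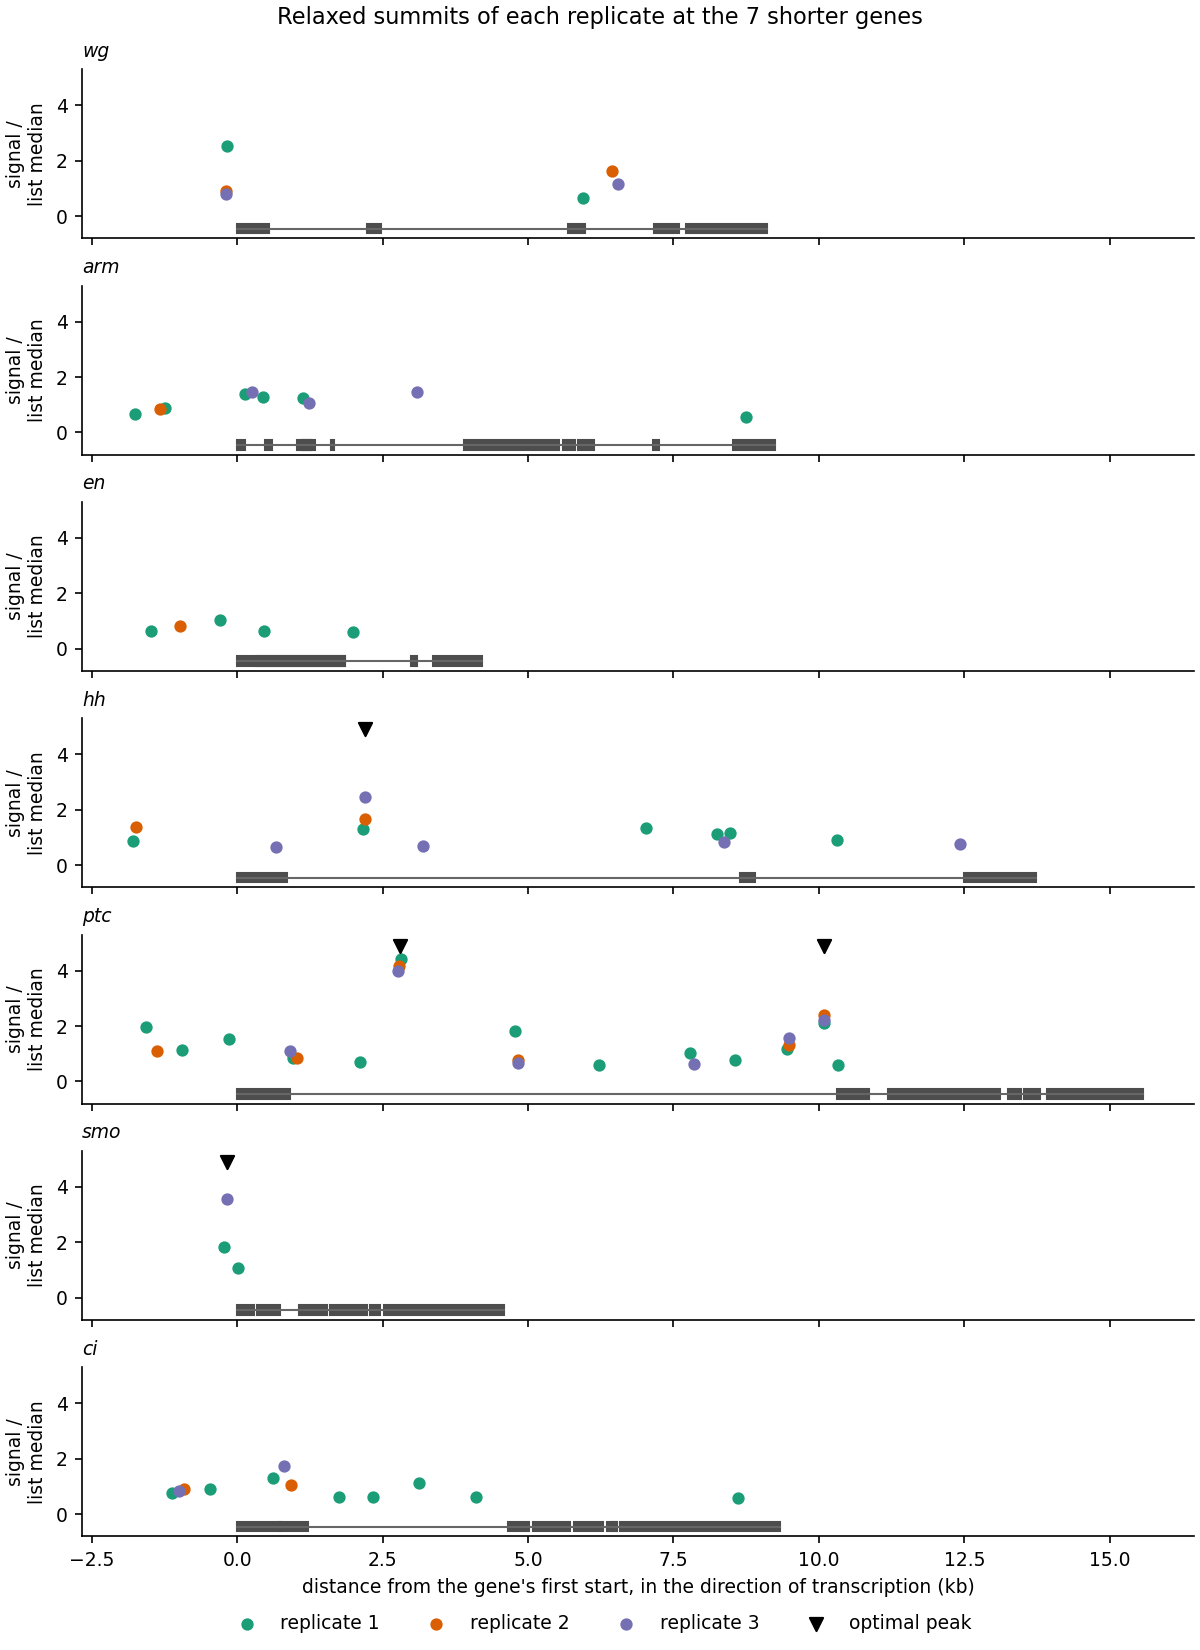
Signal of every relaxed summit over the median of its own replicate list, at the 7 genes of 4000 to 16000 bp, against distance from the first start in kb, with exons drawn as boxes. Points are replicates 1, 2 and 3, and black triangles mark optimal peaks. At ptc the replicates lie close together under both triangles, at smo replicate 2 is missing, and at wg replicate 1 stands apart at the promoter.

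Some summits came close to the optimal list without entering it. Among the 5809 strongest of a replicate, 5 summits at these genes had no optimal summit within 500 bp. In replicate 1 these were the wg promoter summit and an fz summit at 80103 bp (rank 5526). In replicate 2 it was an nkd summit at 3628 bp (rank 4776). In replicate 3 they were an nkd summit at 18095 bp (rank 4815) and an fz2 summit at 1320 bp (rank 5463). The pooled list had summits near all 5 sites, at ranks past the length of the optimal list. That at the wg promoter was furthest past it, at rank 8775. The other 4 lay at 18083 bp in nkd (rank 5836), at 3647 bp in nkd (rank 5883), at 80139 bp in fz (rank 5991) and at 1310 bp in fz2 (rank 6842). These other 4 sites are all in introns of the genes that already carried the most optimal peaks.

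Short motifs were looked for on both strands in the 201 bases centred on each summit, and a match describes letters and is not a bound site. TAATTA was in 1 of the 24 windows (4.17%), the nkd one printed above, and in 18.1% of all 5809. GAGAGA, a run bound by GAGA factor, was in 5 (20.8%) against 9.57%. The 5 were fz at 23320 and 54306 bp, fz2 at 3998 bp, nkd at its promoter and ptc at 10089 bp. The composition control AAAAAA was in 9 (37.5%) against 48.5%. CAGGTAG (Zelda) was in 0 against 0.826%, TATCGATA (DREF) in 0 against 3.79%, CTTTGAT (part of the site of pan, the TCF of flies) in 0 against 3.56%, and GACCACCCA (Ci) in 0 against 0.0516%. The A and T content of the 24 windows had a median of 66.9%, with a range from 58.7% to 78.6%.

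The other genes of these pathways were taken as 6 lists holding 65 genes in all, with each gene counted once. Of these, 38 had an optimal peak (58.5%), against 34.2% of all coding genes without regard to length. For 20 of the 38 the strongest peak lay at a promoter of any gene, where 48.1% of all optimal peaks did. The first share takes only the strongest peak of each gene, so the shares are of unlike sets. Over the optimal list promoter peaks had a median relative signal of 1.13, and intron peaks 0.915. Some of the promoter peaks of the 38 genes had another gene as their nearest coding start, as at Gprk2, ihog, lin, botv and disp. The median relative signal of the strongest peaks of the 38 genes was 1.17. By length, 7 of 8 such genes of at least 40000 bp had a peak, where 68.6% of coding genes that long did. Of 28 such genes of 4000 to 16000 bp 15 had one, near the 47.9% of coding genes of that length. Genes are named in the order of their signal in the optimal list, with the mean and SD over the replicates. The lists share casein kinase and ubiquitin ligase genes (dco, CkIalpha, slmb).

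Of 10 genes for Wingless ligands and their secretion, 5 had a peak. The strongest was at Wnt5 (2.12 ± 0.374, SD, n = 3), followed by Wnt4 (0.735 ± 0.0860), Wnt10 (0.653 ± 0.160) and Wnt6 (0.762 ± 0.321), all Wnt ligands and all but Wnt5 below the list's median. Of 9 reception genes 6 had a peak, and the strongest were at the glypican gene dlp (2.34 ± 0.231), the co-receptor gene arr (1.36 ± 0.262), the glypican gene dally (1.20 ± 0.256) and drl, a receptor of Wnt5 (0.843 ± 0.101). The peaks counted for Wnt4, Wnt10, arr and dally had CG31909, ninaC, CG43192 and CG32026 as the genes of their nearest coding start. Of 16 genes of the cytoplasmic and nuclear relay 11 had a peak. The 3 strongest were higher than the strongest fz peak, with 7.82 ± 0.172 at gish, a casein kinase, 5.70 ± 1.02 at gro, the Groucho corepressor, and 4.08 ± 0.296 at sgg, the kinase that marks Armadillo for destruction. These 3 peaks lay at promoters of the genes themselves, and the casein kinase gene dco followed at 2.15 ± 0.419.

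Of 6 genes for Hedgehog release and spread 4 had a peak, and 3 of these encode heparan sulfate polymerases, sotv (2.42 ± 0.399), ttv (1.69 ± 0.107) and botv (0.864 ± 0.337). The nearest coding start was that of LamC for the ttv peak and that of CG15117 for the botv peak. The fourth, disp, which releases Hedgehog from the cells that make it, had 0.803 ± 0.0900 at a summit nearest to the start of ECSIT. Of 12 genes of Hedgehog reception and relay 9 had a peak. The strongest peak, 12.2 ± 1.48 (SD, n = 3), counted for Gprk2, a kinase of Smoothened, but lay 77 bp from a start of PNPase. The gene rdx, whose product targets Ci for degradation, had 12 peaks, the strongest at 4.11 ± 0.391 in an intron. The co-receptor gene ihog followed with 2.93 ± 0.121 at a summit 79 bp from a start of the gene SA1, and then dco with the value above. Of 15 segment polarity factors and targets 6 had a peak, with bowl (2.64 ± 0.214), dpp (1.83 ± 0.120), lin (1.41 ± 0.116, at a start of Pgi) and Ubx (0.859 ± 0.0856) the strongest. The pair-rule and segment polarity genes slp1, slp2, gsb, odd and opa had 0.

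**Figure D5:**
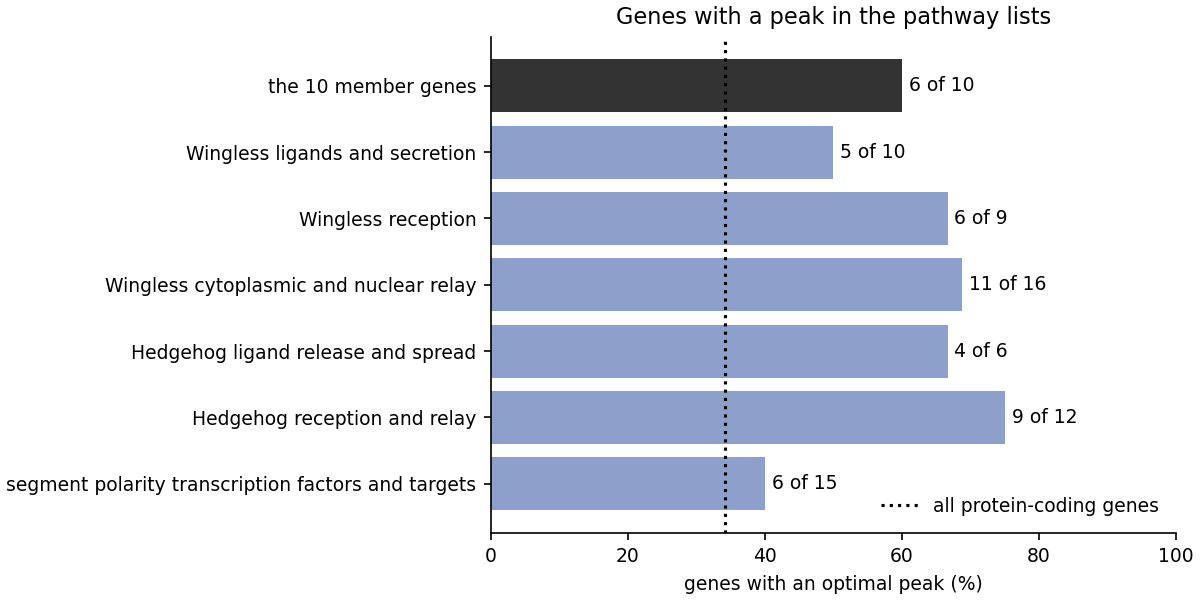
Percent of genes with an optimal peak in the body or 2000 bp upstream, for the 10 genes (dark bar) and the 6 lists of other pathway genes (light bars), with the number of genes written beside each bar and the share of all protein-coding genes (34.2%) as a dotted line. Bars run from 9 of 12 for Hedgehog reception and relay to 6 of 15 among segment polarity factors, and gene length was not matched.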

How the data were processed

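Each of the 3 samples came with a relaxed peak list in dm6, and pooled and optimal lists covered all 3. Per the notes deposited with the files, the authors made each relaxed list from 1 replicate's alignment and 1 control, and derived the optimal list by the irreproducible discovery rate. The signal of each peak and its q-value, on the −log10 scale, are used as deposited by the authors. The aligner, the peak caller and the scale of the signal are each not given in sources used here. Signal was compared only after division by a median of the same list. The dm3 lists were not used here. Lists were joined to genes of Ensembl release 115 (BDGP 6.54) and to RefSeq Release 6 sequence. A summit elsewhere than a promoter was put in an exon class, an intron or between genes. Positions are 1-based.

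The members and lists were chosen with earlier results of these data known. Named genes are the 10 members, up to 4 genes of each list with the strongest optimal peak, and the genes whose starts are nearest to a named peak. Genes named for having no peak, and those nearest to flanking peaks, were named after their values were seen. The labels give the 3 replicates as separate biosamples, and SD values describe the spread between them. Alternatives were a stricter list, other windows, other matching rules, other promoter widths and each replicate left out. Python 3.11.15, numpy 2.4.6, pandas 2.3.3 and matplotlib 3.10.9 were used, and matching, gene windows and promoters were tested on simulated data.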

Additional observations from a re-analysis of the deposited data

How the results depend on the processing

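In the strongest 2904 peaks of the optimal list 3 genes and 9 peaks were left, since fewer peaks were counted. With summits of the full relaxed replicate lists allowed, 23 of the 24 peaks were found in all 3 replicates. With promoters of 1000 bp on each side, 6 of the 24 were at a promoter. Without upstream sequence 5 genes and 21 peaks remained, with 5000 bp upstream the counts were 6 and 24, and by the nearest coding start alone they were 8 and 19. The pooled list held to a −log10 q-value of 2 or more gave 9 genes. Counting only optimal peaks found in both other replicates, each replicate left out in turn gave 4 genes each time and 15 to 18 peaks. The strongest peak's mean ran from 2.93 to 3.20 at fz, 1.97 to 2.08 at nkd, 1.09 to 1.22 at ptc, 0.802 to 0.899 at fz2, 0.419 to 0.549 at hh and 0.534 to 0.925 at smo, where only 2 replicates have a value. Read depth is unknown, so a gene with no optimal peak was not shown to be unbound. No paired analysis was possible because all 3 replicates belong to 1 group.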
